A study of Mus musculus with 12 samples.

Results

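The genes described here are the translation initiation and elongation factors of the mouse, taken as every protein-coding gene whose symbol begins with Eif or Eef and a digit. They numbered 71 of the 21900 protein-coding genes in the RefSeq table of GRCm38 used for gene positions. The rule takes in the factors themselves and also their regulators, namely the kinases that phosphorylate eIF2, the proteins that bind eIF4E, and a kinase and several methyltransferases that act on elongation factors. H3K79me2, the dimethyl mark that DOT1L places on lysine 79 of histone H3, had been profiled by chromatin immunoprecipitation and sequencing in CD8 T cells of male mice. Those mice were wild type for both CreERT2 and DOT1L-flox and heterozygous for OT-I, a T cell receptor transgene, and this held in every group. Cells were activated through CD3 and CD28 on day 0 and cultured to day 8, with additions every 2 days, in EPZ-5676 or SGC-0946, which both inhibit DOT1L, or in 0.1% DMSO as vehicle. The labels give the compounds at 10 mM, a doubtful unit for cell culture. Yeast chromatin carrying HA-tagged H3 was spiked into the samples.

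Each treatment had 2 immunoprecipitated and 2 input libraries, 12 libraries in all, but the authors' peaks were given as a single list for each treatment, called here the EPZ, SGC and DMSO lists. No value therefore has a spread between replicates, no test across replicates was possible, and the depth of sequencing is unknown. Fewer cells with the mark and less mark per cell cannot be told apart in such bulk chromatin. The EPZ list held 4443 peaks, the SGC list 55 and the DMSO list 12578. Marked genes are those whose mm10 interval held 1 or more peak bases. Fold enrichment is the authors' ratio over background for a peak, was compared only within its own list, and is given for the highest peak of a gene. The 7 genes listed as CD8 T cell markers (Cd2, Cd3d, Cd3e, Cd3g, Cd8a, Cd8b1 and Lck) were all marked in the EPZ and DMSO lists and 0 of 7 in the SGC list. In DMSO, 0 of 3 CD4 T cell, 0 of 4 myeloid and 1 of 4 B cell markers had a peak, the last being Cd79a, whose peak also touched a neighbouring gene.

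Translation starts when eIF2 brings the initiator tRNA to the small ribosomal subunit, with eIF1, eIF1A and the large eIF3 scaffold keeping that complex open while it scans for a start codon. The eIF4F complex, made of the cap-binding protein eIF4E, the scaffold eIF4G and the helicase eIF4A, recruits the messenger RNA, and eEF1 and eEF2 then drive elongation. T cells raise protein synthesis strongly on activation. H3K79me2 lies over the first part of the body of transcribed genes.

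With EPZ-5676, 43 of the 71 translation factor genes carried a called H3K79me2 peak (60.6%, exact 95% interval 48.3 to 72.0), with SGC-0946 0 of 71 did (interval up to 5.06%), and with DMSO 57 of 71 did (80.3%, interval 69.1 to 88.8). Over all protein-coding genes the shares were 15.9% in the EPZ list, 0.142% in the SGC list and 34.5% in the DMSO list. Every translation factor gene marked in the EPZ list was also marked in DMSO, as were all 3486 protein-coding genes marked in EPZ. Of the 57 genes marked in DMSO, 43 had an EPZ peak (75.4%, interval 62.2 to 85.9), against 46.1% of all DMSO-marked genes. Requiring a −log10 q of at least 5 in every list left 28 genes marked in EPZ and 43 in DMSO, against 7.68% and 17.3% of all protein-coding genes. All 28 were among the 43 (65.1%), against 44.1% of all genes marked in DMSO at that threshold. The intervals cover the counting of genes only.

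The highest DMSO peak of the 57 marked genes had a median fold enrichment of 5.68 (interquartile range 4.53 to 7.93), and over all marked genes the median was 4.47 (3.53 to 5.99). The values ran from 2.93 at Eif4ebp1 to 13.3 at Eif3d. Within the EPZ list the 43 genes had a median of 4.43, against 4.09 over all 3486 genes marked there, and ran from 2.79 at Eif4g3 to 13.0 at Eef2. In the DMSO list 15 of the 57 genes were marked by at least 1 peak that also touched another protein-coding gene, and over all DMSO-marked genes this held for 24.0%. The mark at those 15 genes cannot be given to the translation factor alone. Among the other 42 genes 32 had an EPZ peak (76.2%), against 45.0% of all genes with unshared DMSO peaks.

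**Figure D1:**
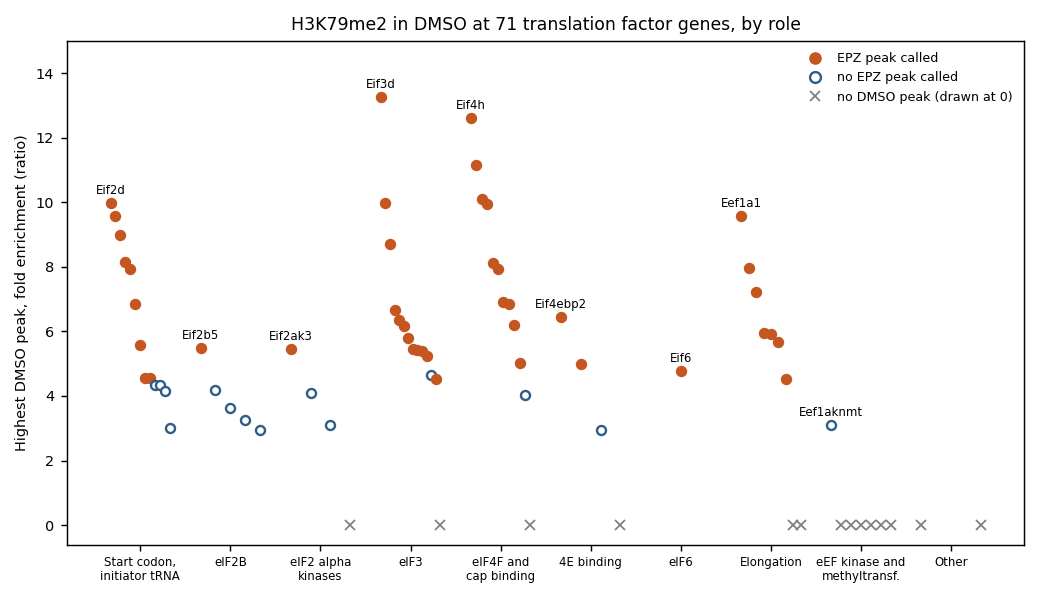
Fold enrichment of the highest DMSO peak in each of the 71 translation factor genes, on the vertical axis, grouped by role on the horizontal axis. Filled points are genes that also had an EPZ peak, open points had none, and crosses drawn at 0 had no DMSO peak; the filled points lie at 4.52 and above and the open points at 4.65 and below.

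Promoter sequence is shown for 8 genes: Eef2 and Eif3d, which held the highest EPZ and DMSO values among the translation factors, and 3 pairs of paralogs in which 1 copy or neither had an EPZ peak. Each stretch runs 5′ to 3′ from 100 bases before the outermost RefSeq start to 20 bases from it on, on GRCm38.p6, and capitals mark matches to the 5 motifs spelled out after the sequences.
Eef2 (chr10:81176531-81176650, plus strand): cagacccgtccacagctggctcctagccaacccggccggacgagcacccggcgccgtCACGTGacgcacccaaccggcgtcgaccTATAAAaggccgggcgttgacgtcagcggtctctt
Eif3d (chr15:77970805-77970924, minus strand): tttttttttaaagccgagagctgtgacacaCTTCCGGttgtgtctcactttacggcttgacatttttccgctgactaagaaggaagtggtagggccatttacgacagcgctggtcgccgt
Eef1a1 (chr9:78481705-78481824, minus strand): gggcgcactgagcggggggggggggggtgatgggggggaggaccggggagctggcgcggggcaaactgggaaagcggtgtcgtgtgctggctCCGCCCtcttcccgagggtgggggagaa
Eef1a2 (chr2:181156996-181157115, minus strand): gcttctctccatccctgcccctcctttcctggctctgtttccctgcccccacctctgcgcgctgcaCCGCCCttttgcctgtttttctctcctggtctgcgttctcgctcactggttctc
Eif1 (chr11:100319849-100319968, plus strand): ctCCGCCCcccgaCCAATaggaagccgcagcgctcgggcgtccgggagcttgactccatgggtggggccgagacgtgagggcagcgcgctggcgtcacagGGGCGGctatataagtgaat
Eif1b (chr9:120492506-120492625, plus strand): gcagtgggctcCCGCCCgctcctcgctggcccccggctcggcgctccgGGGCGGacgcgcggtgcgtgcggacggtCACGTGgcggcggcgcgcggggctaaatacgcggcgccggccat
Eif2s3x (chrX:94212632-94212751, minus strand): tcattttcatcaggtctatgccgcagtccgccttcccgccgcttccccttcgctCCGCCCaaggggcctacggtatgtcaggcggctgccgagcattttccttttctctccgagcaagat
Eif2s3y (chrY:1010495-1010614, plus strand): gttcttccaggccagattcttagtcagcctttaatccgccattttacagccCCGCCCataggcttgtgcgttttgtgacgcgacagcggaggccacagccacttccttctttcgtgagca
The motifs were the E-box CACGTG, the ETS core CCGGAAG, the CCAAT box CCAAT, the TATA box TATAAA and the GC box GGGCGG, each searched on both strands. Relative to the start, the Eef2 peak ran from −0.116 to 3.50 kb in EPZ and from −0.362 to 5.50 kb in DMSO, and both held the whole printed stretch. The Eef1a1 peaks began 0.068 kb after the start in EPZ and 0.040 kb in DMSO, beyond the printed stretch, and those of Eif1 began 0.205 kb after it in EPZ and 0.095 kb in DMSO. Eif1b, Eif2s3x and Eif2s3y had a DMSO peak only, and Eef1a2 had no peak in any list.

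Windows from 250 bases before to 50 after a start were given for 55 of the 71 genes, as 70 windows. The E-box stood in 24.3% of these windows, against 7.84% of all 21263 windows of protein-coding genes and 10.1% of the windows of DMSO-marked genes. The GC box stood in 70.0%, 46.2% and 63.9% in the same order, and the ETS core in 28.6%, 11.6% and 21.8%. The CCAAT box stood in 28.6%, 38.2% and 37.8% and the TATA box in 7.14%, 12.6% and 6.63%. By gene, the E-box was in 9 of 35 translation factor genes with an EPZ peak, 2 of 11 with a DMSO peak only and 4 of 9 with no peak. Eef1akmt4 and the readthrough gene Eef1akmt4-ece2 share a start, and counted once they gave 3 of 8 with no peak and 23.2% of the windows. A C at the annotated start followed by 4 bases that are each C or T, the start of a TOP messenger RNA, was found in 2 of the 55 genes, Eif2s3x and Eif3f, and in 2.21% of all windows. That count depends on the exact annotated base. A match is a stretch of letters and no measure of binding.

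The list for the initiator tRNA and start codon selection was made to hold Eif1ad and Eif2d as well. Of its 13 genes 9 were marked in EPZ (interval 38.6 to 90.9%), 0 in SGC and 13 in DMSO (interval from 75.3%). The shares of all protein-coding genes were 15.9%, 0.142% and 34.5% in the same order. Eif2s1 and Eif2s2 encode the alpha and beta subunits of eIF2. Eif2s2, on chromosome 2 from 154871410 to 154892906, had 4.09 kb of EPZ peak at 7.12-fold and 8.00 kb of DMSO peaks with a highest value of 9.59-fold. Eif2s1 had 4.49 kb at 6.35-fold in EPZ and 14.3 kb at 6.85-fold in DMSO, through a peak that also lay on Atp6v1d. The gamma subunit genes differed from these in that neither Eif2s3x on the X chromosome nor Eif2s3y on the Y chromosome had an EPZ peak, and their DMSO peaks had 4.33-fold over 3.69 kb and 3.02-fold over 2.11 kb, at the 46.9th and 9.49th percentiles of marked genes. Those 2 genes are close in sequence, and how reads that fit both were placed is not given in the sources used here. In the DMSO classes of Eif2s3x (4 to 5-fold) and Eif2s3y (below 4-fold), 44.9% and 3.54% of all marked genes had an EPZ peak.

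Eif1, whose product guards start codon choice, was the shortest member at 2.15 kb. Its EPZ peak covered 1.56 kb at 4.86-fold and its DMSO peak covered 2.00 kb at 8.99-fold, 93.2% of the gene. Eif5, which encodes the GTPase-activating protein of eIF2, had 1.50 kb at 5.63-fold in EPZ and 3.26 kb at 8.16-fold in DMSO. Eif5b, whose product joins the ribosomal subunits, had 2.16 kb at 2.90-fold in EPZ and 18.8 kb at 4.54-fold in DMSO, a peak that reached Txndc9. Eif1ad had 1.79 kb at 4.09-fold in EPZ and 2.94 kb at 7.93-fold in DMSO, through peaks that also lay on Banf1. Eif2a, which encodes an alternative initiator tRNA-binding protein, had no EPZ peak and a DMSO peak of 4.35-fold shared with Serp1. The highest DMSO value of the group, 9.96 at Eif2d, came from a peak of 20.3 kb that ran from 27.2 to 47.5 kb after the Eif2d start into Rassf5. Near its own start Eif2d had a DMSO peak of 1.75 kb at 3.52-fold, and both of its EPZ peaks also lay on Rassf5.

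The eIF2B complex reloads eIF2 with GTP, and the eIF2 kinases inhibit that step. All 5 eIF2B subunit genes were marked in DMSO (interval from 47.8%), against 34.5% of all protein-coding genes, at a median of 3.62-fold. In EPZ 1 of 5 was marked (interval 0.505 to 71.6%), against 15.9% of all protein-coding genes. That 1 was Eif2b5, which encodes the catalytic epsilon subunit, with 0.411 kb at 3.20-fold in EPZ and 1.07 kb at 5.47-fold in DMSO. The others had DMSO values of 4.19 at Eif2b4, 3.62 at Eif2b1, 3.25 at Eif2b2 and 2.96 at Eif2b3. Their −log10 q in DMSO was 4.05, 3.04, 2.02 and 1.45 in the same order, below the stricter threshold of 5, against 7.35 at Eif2b5. The Eif2b4 and Eif2b1 peaks also lay on the neighbouring genes Snx17 and Gtf2h3.

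Of the 4 eIF2 kinase genes, 1 was marked in EPZ (interval 0.631 to 80.6%) and 3 in DMSO (interval 19.4 to 99.4%). These intervals held the shares over all protein-coding genes, 15.9% and 34.5%. Eif2ak3 encodes PERK, the kinase of endoplasmic reticulum stress. It carried 8.51 kb of EPZ peaks at up to 4.31-fold and 33.7 kb of DMSO peaks at up to 5.44-fold, which was 55.5% of its length. Eif2ak1, the heme-regulated kinase, and Eif2ak2, the double-stranded RNA-activated kinase PKR, had no EPZ peak and had DMSO values of 4.09 and 3.10. The Eif2ak2 peak also lay on Gm26637. Eif2ak4, which encodes the amino acid sensor GCN2, had no peak in any list.

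The eIF3 genes were marked nearly throughout: 12 of 14 in EPZ, 0 of 14 in SGC and 13 of 14 in DMSO. The intervals were 57.2 to 98.2% in EPZ and 66.1 to 99.8% in DMSO. Over all protein-coding genes the shares were 15.9% in EPZ, 0.142% in SGC and 34.5% in DMSO. Eif3d encodes a subunit that can bind the cap of some messenger RNAs. On chromosome 15 from 77958998 to 77970824, it had 2.37 kb at 7.93-fold in EPZ and 2.73 kb at 13.3-fold in DMSO, the highest DMSO value of all 71 genes, at the 99.6th percentile of marked genes. Eif3a, which encodes the largest subunit, had 8.60 kb at 11.8-fold in EPZ and 22.9 kb in 3 DMSO peaks of 9.98-fold at most. The core subunit gene Eif3b had 6.14 kb at 7.02-fold in EPZ and 7.99 kb at 8.70-fold in DMSO.

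Eif3h carried more DMSO peak length than any other translation factor gene, 59.7 kb in 4 peaks, or 75.7% of its 78.9 kb. In EPZ 8.45 kb were left under a peak, 14.1% of the DMSO length. Eif3l had no EPZ peak, with a DMSO value of 4.65, whereas Eif3m, at 4.53 in DMSO, had an EPZ peak of 1.34 kb at 4.37-fold. For the remaining marked subunit genes, Eif3c, Eif3e, Eif3f, Eif3g, Eif3i, Eif3j1 and Eif3k, DMSO values lay between 5.41 and 6.67. The DMSO peaks of Eif3i and Eif3k also lay on Tmem234 and Map4k1. Eif3j2 had no peak in any list.

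Of the genes of cap binding and eIF4F, 10 of 12 were marked in EPZ, 0 of 12 in SGC and 11 of 12 in DMSO. The intervals were 51.6 to 97.9% in EPZ and 61.5 to 99.8% in DMSO, against 15.9% and 34.5% of all protein-coding genes. No DMSO peak of these genes touched another protein-coding gene. As a group they had the highest median DMSO value of the lists with more than 1 member, 7.93. Eif4h and Eif4b encode cofactors of the eIF4A helicase. Eif4h kept 11.1 kb at 7.06-fold in EPZ and had 12.4 kb at 12.6-fold in DMSO, an EPZ length that was 89.3% of the DMSO length. Eif4b had 7.77 kb at 9.84-fold in EPZ and 13.6 kb at up to 9.93-fold in DMSO.

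The helicase genes stood high in both lists. Eif4a1, on chromosome 11 from 69666936 to 69672423, had 3.63 kb at 11.0-fold in EPZ and 4.42 kb at 7.93-fold in DMSO. Eif4a2 had 3.44 kb at 10.2-fold in EPZ and 5.12 kb at 11.2-fold in DMSO. Eif4a3, whose product is a core part of the exon junction complex rather than of eIF4F, had 1.88 kb at 9.87-fold in EPZ and 4.46 kb at 10.1-fold in DMSO. Eif4a3l1 lies outside the role lists and had no peak in any list.

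Eif4e, on chromosome 3 from 138526191 to 138559696, had 3 EPZ peaks over 8.76 kb with a highest value of 3.57-fold and 1 DMSO peak of 19.8 kb at 6.92-fold. The EPZ peaks all lay on that DMSO peak. Eif4e2, which encodes a cap-binding repressor of translation, had 2.97 kb at 4.34-fold in EPZ and 5.77 kb at 6.20-fold in DMSO. Eif4e3 had no EPZ peak and 10.2 kb of DMSO peaks at up to 4.04-fold. Among the scaffold genes, Eif4g1 had 2.23 kb at 5.93-fold in EPZ and 5.94 kb at 8.11-fold in DMSO, and Eif4g2, a relative that lacks the eIF4E site, had 2.75 kb at 8.68-fold in EPZ and 7.69 kb at 6.85-fold in DMSO. Eif4g3, the longest member at 215.3 kb, had 1 EPZ peak of 1.48 kb at 2.79-fold and 10 DMSO peaks over 21.3 kb, an EPZ length of 6.94% of the DMSO length and the lowest share of the 43 genes.

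Of the genes for proteins that bind eIF4E, 2 of 4 were marked in EPZ (interval 6.76 to 93.2%) and 3 of 4 in DMSO (interval 19.4 to 99.4%). The shares over all protein-coding genes, 15.9% and 34.5%, lay within these intervals. The 4E-BPs are repressors that mTOR releases from eIF4E. Eif4ebp2 had 3.71 kb at up to 5.24-fold in EPZ and 15.5 kb at 6.44-fold in DMSO. Eif4ebp1 had no EPZ peak and the lowest DMSO value of all, 2.93. Eif4ebp3 had no peak. Eif4enif1, which encodes the eIF4E transporter, had 1.87 kb at up to 4.44-fold in EPZ and 10.3 kb at up to 5.00-fold in DMSO, through peaks that touched Sfi1 and Gm51877. Eif6, whose product keeps the large ribosomal subunit apart from the small one, had 0.445 kb at 3.45-fold in EPZ and 3.32 kb at 4.77-fold in DMSO.

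In the elongation list 7 of 9 genes were marked in EPZ, 0 of 9 in SGC and 7 of 9 in DMSO, and all 7 were the same genes. Eef2, the translocase gene on chromosome 10 from 81176631 to 81182509, had 3.50 kb at 13.0-fold in EPZ, the highest EPZ value of the 71 genes, and 5.50 kb at 7.23-fold in DMSO. It stood at the 96.3rd percentile of marked genes in the EPZ list and at the 86.1st in the DMSO list. Eef1a1, which encodes the factor that delivers aminoacyl-tRNA and lies on chromosome 9 from 78478453 to 78481724, had 1.97 kb at 10.3-fold in EPZ and 3.23 kb at 9.58-fold in DMSO, 98.8% of its length.

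The exchange factor genes of eEF1 had lower values. In EPZ and in DMSO, Eef1b2 had 4.47-fold and 5.91-fold, Eef1d 3.45-fold and 5.95-fold, and Eef1g 4.07-fold and 5.68-fold. The Eef1b2 and Eef1g DMSO peaks also lay on Ndufs1 and Tut1. Eef1e1 encodes a protein of the aminoacyl-tRNA synthetase complex. It had 1.43 kb at 3.31-fold in EPZ and 1.92 kb at 4.52-fold in DMSO, the lowest DMSO value with an EPZ peak. Eif5a, whose hypusine-bearing product relieves stalled ribosomes, had 4.57 kb at 7.90-fold in EPZ and 4.69 kb at 7.96-fold in DMSO. The EPZ length was 97.5% of the DMSO length there, the highest share of the 43 genes, and the peaks also lay on Gps2.

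Of the 7 genes for modifiers of elongation factors 0 were marked in EPZ (interval up to 41.0%), 0 in SGC and 1 in DMSO (14.3%, interval 0.361 to 57.9). Both intervals held the shares over all protein-coding genes, 15.9% in EPZ and 34.5% in DMSO. That 1 was Eef1aknmt, a methyltransferase gene for eEF1A, with 2.61 kb at 3.11-fold. Eef2k, the kinase gene that inhibits eEF2, and Eef2kmt, Eef1akmt1, Eef1akmt2, Eef1akmt3 and Eef1akmt4 had no peak in any list. Neither did the readthrough gene Eef1akmt4-ece2, which contains Eef1akmt4 and so is no separate observation.

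On chromosome 16, unmarked members lay between marked ones. There Eef1akmt4 and Eef1akmt4-ece2 started 102.3 kb beyond Eif2b5, and Eef1akmt4 ended 53.9 kb short of Eif4g1. Eif2b5 and Eif4g1 were marked in EPZ and DMSO and the methyltransferase gene between them in neither. Eif4a1 and Eif5a, both marked in EPZ and DMSO, were 244.3 kb apart on chromosome 11.

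**Figure D2:**
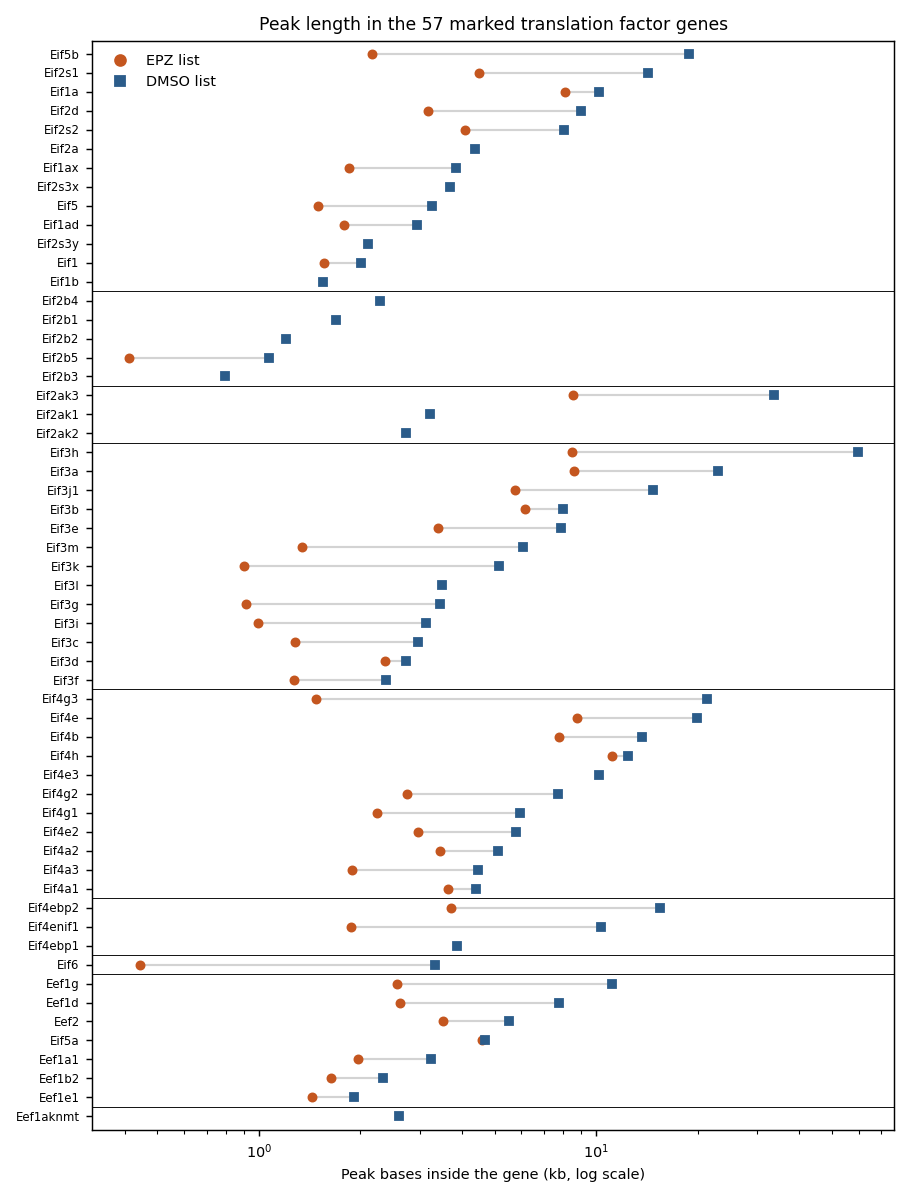
Peak bases inside the gene, in kb on a log scale, for the 57 translation factor genes marked in DMSO, grouped by role with lines between the groups. Circles are the EPZ list and squares the DMSO list, joined by a grey line; genes with a square alone had no EPZ peak, and the DMSO lengths ran from 0.794 kb at Eif2b3 to 59.7 kb at Eif3h.

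Between paralogs the marking often differed. Eef1a1 was marked and Eef1a2, the isoform of muscle and neurons, was not. Eif5a was marked and Eif5a2 was not, Eif4e was marked and the germ cell form Eif4e1b was not, and Eif3j1 was marked and Eif3j2 was not. Eif1 and Eif1b were both marked in DMSO, at 8.99-fold and 4.16-fold, and Eif1 alone had an EPZ peak. Of the eIF1A genes, Eif1a had 8.06 kb at 3.51-fold in EPZ and 10.2 kb at 5.57-fold in DMSO, through a peak shared with Tmed7, and Eif1ax had 1.85 kb at 3.85-fold in EPZ and 3.84 kb at 4.55-fold in DMSO. Peaks covered 66.2% and 51.7% of Eif4a1 and Eif4a2 in EPZ and 80.4% and 76.7% in DMSO. With 1 list per treatment none of these differences was tested. For any of these pairs, how reads that fit both copies were placed is not given in the sources used here.

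**Figure D3:**
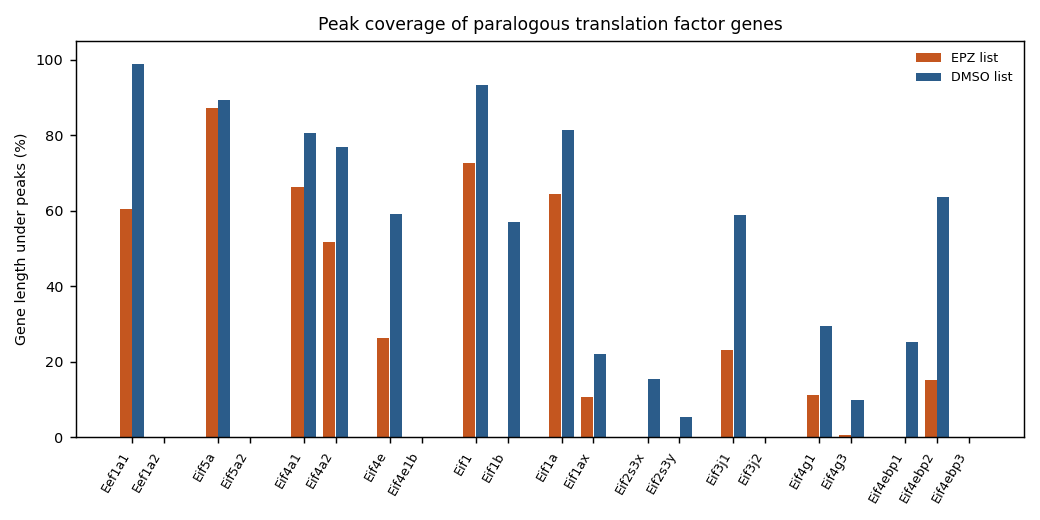
Share of gene length under peaks, in percent, for the paralogous translation factor genes, with the EPZ list left of the DMSO list for each gene. Genes without bars, such as Eef1a2, Eif5a2, Eif4e1b, Eif3j2 and Eif4ebp3, had no peak; no SGC peak lay in any of these genes.

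Whether a translation factor gene had an EPZ peak followed its DMSO value closely. All 39 genes with a DMSO value above that of Eif3l (4.65) had an EPZ peak, and 0 of 13 with a value below that of Eef1e1 (4.52) had one. Between these values lay Eef1e1, Eif3m, Eif5b and Eif1ax, which had an EPZ peak, and Eif3l, which had none. Over all DMSO-marked genes, the same bounds gave EPZ peaks in 84.5% of the genes above, 53.9% of those between and 10.8% of those below. These bounds were read from the translation factors themselves.

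With bounds set as round values, 0 of 7 translation factor genes below 4-fold in DMSO had an EPZ peak, against 3.54% of all marked genes in that range. From 4 to 5-fold 5 of 12 had one (41.7%, interval 15.2 to 72.3), against 44.9%. From 5 to 6-fold 13 of 13 had one, against 81.2%, from 6 to 8-fold 12 of 12, against 91.4%, and from 8-fold on 13 of 13, against 94.4%. Taken from 5-fold on, the count was 38 of 38 (interval from 90.7%), against 88.4% of 2979 genes. Among genes whose DMSO peaks touched no other protein-coding gene it was 28 of 28 (interval from 87.7%), against 94.4% of 2027.

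**Figure D4:**
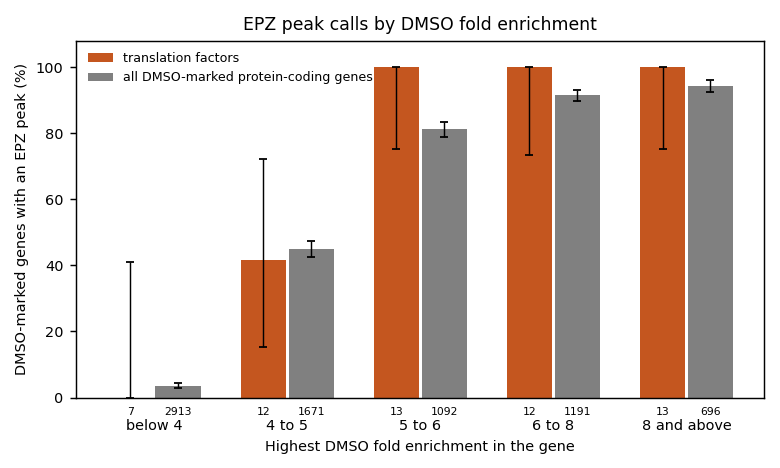
Share of DMSO-marked genes with an EPZ peak, in percent, by the fold enrichment of the highest DMSO peak, for translation factors (left bar) and all marked protein-coding genes (right bar), with exact 95% intervals and the number of genes under each bar. The shares were higher in the higher classes, and reached 38 of 38 translation factors at 5-fold or more.

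The bases under EPZ peaks were fewer than under DMSO peaks in all 43 genes. Most other genes shared this: over all 3486 genes the EPZ share of DMSO peak bases had an upper quartile of 55.4% and a maximum of 139.7%. Within a gene, EPZ peak bases amounted to a median of 43.1% of DMSO peak bases (interquartile range 29.0 to 62.4, interval of the median 35.2 to 53.3), and over all 3486 genes the median was 34.4% (18.4 to 55.4). With a −log10 q of at least 5 the order turned, with 49.4% for translation factors and 52.8% for all genes. Within the first 5 kb of the genes whose start was known, the median was 67.3%, against 58.8% over all genes. The EPZ length was over 50% of the DMSO length in 17 of the 43 genes and less in 26, a split not counted over all genes. After Eif5a, the highest shares were 89.3% at Eif4h, 86.7% at Eif3d, 82.3% at Eif4a1 and 79.1% at Eif1a. After Eif4g3, the lowest were 11.5% at Eif5b, 13.4% at Eif6, 14.1% at Eif3h and 17.6% at Eif3k.

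Across the 43 genes this share had a Spearman correlation of 0.53 with DMSO fold enrichment and of −0.46 with gene length, and over all 3486 genes the values were 0.71 and −0.37. These are descriptions across genes of 1 pair of lists, with no test. By summed length over all members, EPZ peaks amounted to 149.4 kb and DMSO peaks to 456.4 kb. The group sums were 18.3 kb and 36.6 kb for elongation, 46.0 kb and 110.8 kb for eIF4F, and 41.4 kb and 142.5 kb for eIF3.

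EPZ peaks lay mostly near the start of the gene, with Eif2d as an exception. Among 35 translation factor genes with a known start and an EPZ peak, the highest EPZ peak ran from a median of 0.250 kb to 2.89 kb after the start. The highest DMSO peak, over 46 genes, had medians of −0.0115 kb and 4.40 kb for the same ends. Over all protein-coding genes with a known start, the medians were similar, 0.370 and 3.15 kb in EPZ and 0.099 and 4.405 kb in DMSO. In 35 of the 35 genes the highest EPZ peak ended before the highest DMSO peak did and in 33 it began after it. Over all protein-coding genes with both peaks and a known start, the counts were 2801 and 2773 of 2831. The stretch lost on the far side was the longer one in 30 of 35 genes (85.7%), against 84.0% of all such genes, with a median of 1.74 kb on that side and 0.267 kb on the start side. Over all genes those medians were 3.80 and 0.540 kb.

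The annotated start base itself lay under an EPZ peak in 8 of 35 genes (22.9%, interval 10.4 to 40.1), against 17.8% of all genes with an EPZ peak and a known start. It lay under a DMSO peak in 25 of 46 (54.3%, interval 39.0 to 69.1), against 38.8%. Where a gene had several starts the outermost was used, as for Eif5a, whose peaks began 0.676 kb after it in EPZ and 0.559 kb in DMSO.

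Of the 57 genes, 13 had more than 1 DMSO peak, and 11 of these had an EPZ peak. Of all 3486 protein-coding genes marked in EPZ, 1312 had more than 1 DMSO peak, against 11 of 43 here. In all 11 the highest DMSO peak was overlapped by an EPZ peak, against 99.1% over all genes of that kind. Of the other 25 DMSO peaks in these genes 0 were overlapped, against 3.88%. The highest peaks had values of 5.00 to 9.98 and the others of 2.60 to 3.52. At Eif3a, for example, the EPZ peak lay on the first of 3 DMSO peaks, which ran from −0.303 to 11.3 kb relative to the start, and not on those that began 13.1 and 17.1 kb after it. At Eif4g3 it lay on the first of 10. In 6 genes, Eif2ak3, Eif2d, Eif3j1, Eif4e, Eif4ebp2 and Eif4enif1, more than 1 EPZ peak was called. All 50 EPZ peaks in translation factor genes lay on a DMSO peak. Neither that share nor the share of genes with more than 1 EPZ peak was counted over all genes.

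**Figure D5:**
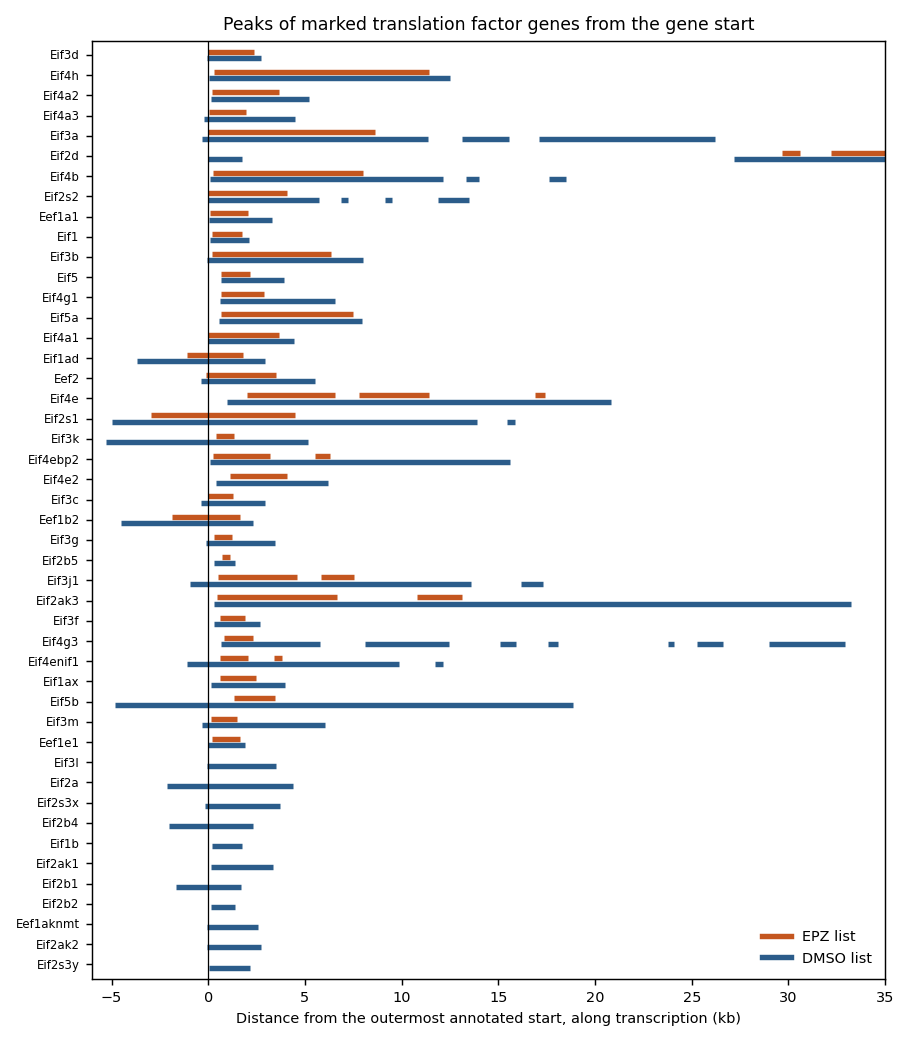
Peaks of the 46 DMSO-marked translation factor genes with a known start, drawn along the direction of transcription by distance from the outermost annotated start in kb, with the EPZ list above the DMSO list in each row. Genes with an EPZ peak come first and rows fall in DMSO fold enrichment within each part; the axis ends at 35 kb, and Eif2ak3, Eif2d and Eif4g3 have peaks beyond it.

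The same counts were made for other genes of protein synthesis. In the EPZ list 43 of 71 translation factor genes, 78 of 90 cytosolic ribosomal protein genes, 17 of 36 aminoacyl-tRNA synthetase genes and 12 of 78 mitochondrial ribosomal protein genes were marked, or 60.6%, 86.7%, 47.2% and 15.4%. In the DMSO list the counts were 57, 81, 31 and 68 in the same order, or 80.3%, 90.0%, 86.1% and 87.2%. The median DMSO values were 5.68, 7.30, 4.08 and 3.61, and 0 genes of any of these groups had an SGC peak. Over all protein-coding genes 15.9% were marked in EPZ and 34.5% in DMSO, and the median DMSO value of marked genes was 4.47. The mitochondrial ribosomal protein genes, at 15.4% in EPZ (interval 8.21 to 25.3), were near the share of all genes there. These differences were not tested.

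Further genes of the same pathway, named outside the Eif and Eef symbols, were also counted. Of 27 cytosolic genes 17 were marked in EPZ (interval 42.4 to 80.6%), 0 in SGC and 24 in DMSO (interval 70.8 to 97.6%). Over all protein-coding genes the shares were 15.9% in EPZ and 34.5% in DMSO. Larp1, whose product binds TOP messenger RNAs, had 31.5 kb at 12.7-fold in EPZ and 41.0 kb at up to 13.4-fold in DMSO. Mknk2, a kinase gene for eIF4E, had 3.77 kb at 9.73-fold in EPZ and 9.46 kb at 11.4-fold in DMSO, and Pabpc1, the poly(A)-binding protein gene, had 4.46 kb at up to 10.4-fold in EPZ and 8.04 kb at 8.45-fold in DMSO. The release factor genes Etf1 and Gspt1 had 14.2 kb and 7.33 kb in EPZ and 20.4 kb and 15.8 kb in DMSO, where the peaks also lay on Hspa9 and LOC115488671. Dhps and Dohh encode the enzymes that place hypusine on eIF5A. They had 0.349 kb and 0.886 kb in EPZ and 1.85 kb and 3.31 kb in DMSO.

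Genes with a DMSO peak and no EPZ peak were Denr, Eefsec, Gcn1, Mcts1, Mknk1, Pelo and Secisbp2. The Secisbp2 value of 9.41 came from a peak shared with Cks2, and the Pelo peak was shared with Itga1. Dhx29, Gspt2 and Mcts2 had no peak. Of 9 mitochondrial translation factor genes 2 were marked in EPZ, Tufm with 0.316 kb and Mtrf1l with 1.13 kb, and 6 in DMSO, at 3.66 to 5.68-fold.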

How the data were processed

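H3K79me2 ChIP-seq was given as 1 deposited list of broad peaks per treatment (EPZ-5676, SGC-0946, DMSO). The submitters' processing notes name MACS2 2.2.7.1, BWA 0.7.17-r1188 and Picard, with the builds mm10 (GRCm38) and sacCer3. The sources used here do not give how replicates were combined, whether inputs or yeast reads entered, or which thresholds applied, so the lists may differ in depth, and a weak region of a shallower list can go uncalled. The fold enrichment deposited for each peak is the authors' ratio over background. The −log10 q deposited beside it is the authors' q-value, and the deposited score was not used. Some DMSO peaks in translation factor genes had a −log10 q as low as 1.01.

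Gene intervals came from a RefSeq table of GRCm38.p6, and starts, strands and promoter sequence from RefSeq windows of the same build, which held 17492 of 21900 protein-coding genes and 55 of the 71 members. Overlap code was tested on simulated intervals. Shares have exact (Clopper-Pearson) 95% intervals. Alternatives were a −log10 q of at least 5, at least 500 bases in the gene, each peak given to the gene it overlaps most, genes extended by 1 kb, unshared peaks only, and the first 5 kb from the start. Small RNA genes were counted when wholly under peaks. The members, role and pathway lists, markers and naming rule were chosen with earlier results of these data known. By the naming rule, the text names in each role list the marked genes of highest and lowest DMSO fold enrichment, every gene without a DMSO or an EPZ peak, the 5 highest and 5 lowest EPZ to DMSO length shares, both copies of each paralog pair, and genes whose peaks touch a neighbour. Other genes were named after their values were seen. Mtrfr of the mitochondrial list was not matched. Protein sequences were not used here. Analyses used Python 3.11.15, pandas 2.3.3 and scipy 1.17.1.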

Additional observations from a re-analysis of the deposited data

How the results depend on the processing

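Under the alternatives the share of DMSO-marked translation factor genes with an EPZ peak lay between 65.1% and 76.2%, against 75.4% as reported, and over all DMSO-marked genes between 44.1% and 47.7%. The lower value, 65.1% of 43 genes, came with a −log10 q of at least 5, where the count of genes marked in EPZ fell to 28, against 43. At that threshold EPZ peak bases amounted to 49.4% of DMSO peak bases in translation factors and 52.8% in all genes, the reverse of the order as reported; the cause was not tested. The EPZ share of DMSO peak bases was 67.3% in the first 5 kb of the gene, against 43.1%; that alternative holds 55 genes and leaves out the far part of the gene. The count of genes with an SGC peak was 0 in each alternative. Restricting to genes with unshared DMSO peaks gave 76.2% for EPZ peaks and 43.7% for peak bases, against 45.0% and 33.5% over all such genes. No paired analysis was possible because each treatment has 1 pooled list with no replicate values, and for the same reason leaving out a replicate was not run. Depth is unknown, so a gene without a peak is one where none was called.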

Other observations

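Small RNA genes lie inside several translation factor genes. Of 16 snoRNA genes in 9 of them, 7 lay wholly under an EPZ peak, 0 under an SGC peak and 13 under a DMSO peak. Over all 293 snoRNA genes inside DMSO-marked protein-coding genes the shares were 24.6% in EPZ and 49.1% in DMSO, and no test was made. Eif4a2 hosts 5, of which 3 lay under its EPZ peak and 5 under its DMSO peak, among them Snord2 and Snora81, guides of ribosomal RNA modification. Snord37 in Eef2 lay under both. Of 4 miRNA genes inside members, Mir3084-2, Mir7038, Mir1956 and Mir6399, 0 lay under a peak of any list, although their hosts Eif3a, Eif3b, Eif4e and Eif4g3 were marked in EPZ and DMSO. Of all 401 miRNA genes inside DMSO-marked protein-coding genes 7.23% lay under an EPZ peak and 24.9% under a DMSO peak, so a count of 0 of 4 is near the background. Mir3084-2 and Snora19 overlap and fell in a gap between DMSO peaks of Eif3a. The 14 pseudogenes and the 1 long noncoding RNA gene, Eif2c5, with symbols that follow the same rule had no peak in any list, where 0.331% of all pseudogenes and 2.45% of all long noncoding RNA genes had one in EPZ and 1.63% and 6.96% in DMSO, so these counts too are near the background.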
